A study of Mus musculus with 5 samples.

Results

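Reads over 4 germline genes, Dazl, Mael, Ddx4 and Sycp3, were described in 5 libraries of mouse embryonic stem (ES) cells, 1 library per group. Each gene was taken as a given interval of the mm9 genome with 5 kb flanks, cut into steps of 500 bp, so that the 4 windows held 331 steps (bins), set beside the 4767580 bins of chromosomes 1 to 19 and X that carried a read in any library. The cells were grown without feeders in serum with leukaemia inhibitory factor. The 4 enriched libraries came from E14 clones of a gene-trap library at passages 11 to 14. MeDIP pulled DNA down with an antibody to 5-methylcytosine (5mC) and hMeDIP with one to 5-hydroxymethylcytosine (5hmC), at 2 µg each and both on denatured DNA with adapters already ligated. MethylCap used 2 µg of a GST-tagged methyl-CpG binding domain (MBD) on 1 µg of sonicated DNA, and the bound DNA was eluted with NaCl at 600 mM or 800 mM. The input was DNA from chromatin of TNG-A cells, another ES line, which carries an EGFP reporter at the Nanog locus. The clones were thus compared with an input of another line, and a difference in copy number at these loci cannot be told apart from enrichment.

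Dazl encodes an RNA-binding protein of germ cells, Ddx4 (also called Vasa or Mvh) an RNA helicase of the germline, Mael a protein of the piRNA pathway that restrains transposons, and Sycp3 a structural part of the synaptonemal complex that pairs chromosomes in meiosis. Promoters of such genes are rich in CpG, and they are known to be methylated and silent in most cells of the body and to lose 5mC in primordial germ cells. Tet enzymes oxidise 5mC to 5hmC, and MBD proteins bind methylated CpG in double-stranded DNA and hold dense methylation more tightly. Expression was not measured here, so the silencing of these genes in these cells was not examined.

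The 250 bases before each gene's start are shown because the signal described below lies at the 5′ end of the genes. They are from RefSeq's GRCm38.p6 build, which is not the build of the reads, and no position was carried from one to the other. All 4 genes had an entry. They lie at chr17:50293621-50293870 (minus strand, Dazl), chr1:166238745-166238994 (minus, Mael), chr13:112652311-112652560 (minus, Ddx4) and chr10:88459337-88459586 (plus, Sycp3). Capitals mark CpG, the dinucleotide that carries the methylation read by the MBD:
Dazl: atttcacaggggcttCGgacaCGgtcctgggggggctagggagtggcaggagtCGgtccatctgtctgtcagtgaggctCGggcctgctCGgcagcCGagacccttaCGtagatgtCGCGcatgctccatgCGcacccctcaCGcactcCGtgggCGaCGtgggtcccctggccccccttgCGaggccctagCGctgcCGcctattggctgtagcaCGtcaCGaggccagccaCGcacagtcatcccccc
Mael: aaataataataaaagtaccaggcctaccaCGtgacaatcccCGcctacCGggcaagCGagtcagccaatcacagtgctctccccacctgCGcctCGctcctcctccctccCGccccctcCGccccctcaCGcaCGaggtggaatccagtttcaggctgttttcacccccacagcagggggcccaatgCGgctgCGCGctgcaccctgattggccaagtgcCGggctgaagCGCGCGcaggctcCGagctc
Ddx4: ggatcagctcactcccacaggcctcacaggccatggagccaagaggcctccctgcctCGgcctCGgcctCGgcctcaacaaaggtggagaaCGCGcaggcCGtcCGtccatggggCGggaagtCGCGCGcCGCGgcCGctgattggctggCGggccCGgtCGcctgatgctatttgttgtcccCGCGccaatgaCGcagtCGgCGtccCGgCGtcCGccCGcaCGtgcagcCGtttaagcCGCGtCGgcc
Sycp3: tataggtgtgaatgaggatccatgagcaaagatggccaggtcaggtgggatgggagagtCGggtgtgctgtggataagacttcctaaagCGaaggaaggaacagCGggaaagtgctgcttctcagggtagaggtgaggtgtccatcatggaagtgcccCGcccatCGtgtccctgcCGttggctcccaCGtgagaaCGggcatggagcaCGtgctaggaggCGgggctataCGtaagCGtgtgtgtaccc

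These stretches held 20, 18, 31 and 12 CpG in Dazl, Mael, Ddx4 and Sycp3. In windows that add 50 bases after the start, 300 bases in all, the counts were 28, 24, 38 and 15, against a median of 7 over all 32851 promoters of the table. As many CpG or more were found in 14.2% of promoters for Dazl, 20% for Mael, 4.95% for Ddx4 and 34.6% for Sycp3. The E-box CACGTG, a palindrome that reads alike on both strands, occurred once in Mael (223 bases before the start), once in Ddx4 (29 bases before) and at 2 places in Sycp3 (64 and 43 bases before), and these letters were not in the Dazl window. It is in 7.15% of all promoters. The E2F-type motif TCCCGC, searched on both strands, occurred in Mael (2 matches), Ddx4 (1) and Sycp3 (1), was not in the Dazl window, and is in 20% of all promoters. The motifs do not overlap each other in these windows. Of 20 other germline genes chosen for comparison, 18 had a promoter in the table. These had a median of 20 CpG, and 10 held CACGTG and 5 held TCCCGC. How far these counts depend on the choice of genes was not tested. No gene models of mm9 were used, so their reads are not described.

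The libraries held 10462783 (600 mM), 7507520 (800 mM), 10442811 (MeDIP), 18519740 (hMeDIP) and 18676265 (input) reads on chromosomes 1 to 19 and X, and values are given as reads or, scaled to each library's total, as RPM (reads per 1000000 reads). The input held a median of 3 reads per bin. Folds over regions are ratios of RPM with exact 95% intervals (Clopper-Pearson). The intervals cover counting error only, since these reads carry no molecular identifiers and are not independent. With 1 library per group there was no test, and no difference has a replicate check. Over all 5 kb windows with at least 20 input reads the median fold over input was 0.595 at 600 mM and 0.515 at 800 mM in the eluates, 0.736 in MeDIP and 0.768 in hMeDIP, which is the level of an ordinary window.

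The 5′ end of each gene was compared between libraries over a fixed 5 kb, from 2 kb outside to 3 kb inside the edge of the interval on the side of the gene's start (the 5′ edge). The position of the start itself in mm9 was not used. MBD capture was above input there in all 4 genes, most in Dazl, whereas the 5mC antibody was above input in Dazl and Sycp3 only.

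Over the 5′ edge of Dazl, at chr17:50430501-50435500, there were 475 reads at 600 mM (45.4 RPM), 107 at 800 mM (14.2 RPM), 58 in MeDIP (5.55 RPM), 87 in hMeDIP (4.70 RPM) and 43 in input. The 600 mM eluate was thus 19.7-fold over input (interval 14.4 to 27.6), a level reached by 0.0221% of the 447879 windows of 5 kb. The 800 mM eluate was 6.19-fold (4.31 to 9.04), MeDIP 2.41-fold (1.60 to 3.67) and hMeDIP 2.04-fold (1.40 to 3.01). These levels are reached by 1.44%, 9.62% and 11.7% of 5 kb windows, so those of the antibodies were not rare in the genome. The interval of each of the 4 libraries lay above 1, and that of the 600 mM eluate lay above those of the other 3. The signal was narrow. Within 1 kb either side of the edge the 600 mM eluate was 69.6-fold and MeDIP 7.30-fold.

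Mael, at chr1:168166501-168171500, held 155 reads at 600 mM (14.8 RPM), 55 at 800 mM (7.33 RPM), 24 in MeDIP (2.30 RPM), 85 in hMeDIP (4.59 RPM) and 45 in input. These were 6.15-fold (4.39 to 8.77), 3.04-fold (2.01 to 4.61), 0.954-fold (0.556 to 1.60) and 1.91-fold (1.31 to 2.80) over input. The 600 mM fold is reached by 1.12% of 5 kb windows, the 800 mM fold by 8.54% and the hMeDIP fold by 13.6%. Here the 5hmC antibody and both eluates were above input, and the interval of the 5mC antibody held 1.

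Ddx4, at chr13:113439501-113444500, held 99 reads at 600 mM (9.46 RPM), 57 at 800 mM (7.59 RPM), 22 in MeDIP (2.11 RPM), 40 in hMeDIP (2.16 RPM) and 61 in input. Both eluates were above input, at 2.90-fold (2.08 to 4.05) and 2.33-fold (1.59 to 3.39), levels reached by 8.48% and 13.4% of 5 kb windows. MeDIP, at 0.645-fold (0.377 to 1.07), and hMeDIP, at 0.661-fold (0.432 to 1.00), were not. Within 1 kb either side of the edge the eluates were 11.6-fold and 9.06-fold and hMeDIP 1.80-fold.

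Sycp3, at chr10:87918001-87923000, held 84 reads at 600 mM (8.03 RPM), 56 at 800 mM (7.46 RPM), 65 in MeDIP (6.22 RPM), 152 in hMeDIP (8.21 RPM) and 58 in input. Its folds were alike, at 2.58 (1.83 to 3.68), 2.40 (1.63 to 3.53), 2.00 (1.39 to 2.91) and 2.64 (1.94 to 3.64) in the same order. The folds are reached by 10.6%, 12.8%, 13.9% and 6.27% of 5 kb windows in the same order. As an average over 5 kb, capture in Sycp3, like that in Ddx4, was thus not rare in the genome, and neither was the antibody signal of Sycp3. The intervals of the 4 libraries overlap, and Sycp3 is the gene of the 4 with the fewest CpG in its promoter window and the lowest 600 mM fold. Ddx4, with the most CpG, had the next lowest fold, so the order of the 4 genes in CpG was not their order in capture.

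The input held 43 to 61 reads in these 4 regions, against a median of 38 per 5 kb window. By the 600 mM fold the order was Dazl, Mael, Ddx4 and Sycp3, and the intervals of neighbours in that order overlapped for Ddx4 and Sycp3 and not for the others.

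**Figure D1:**
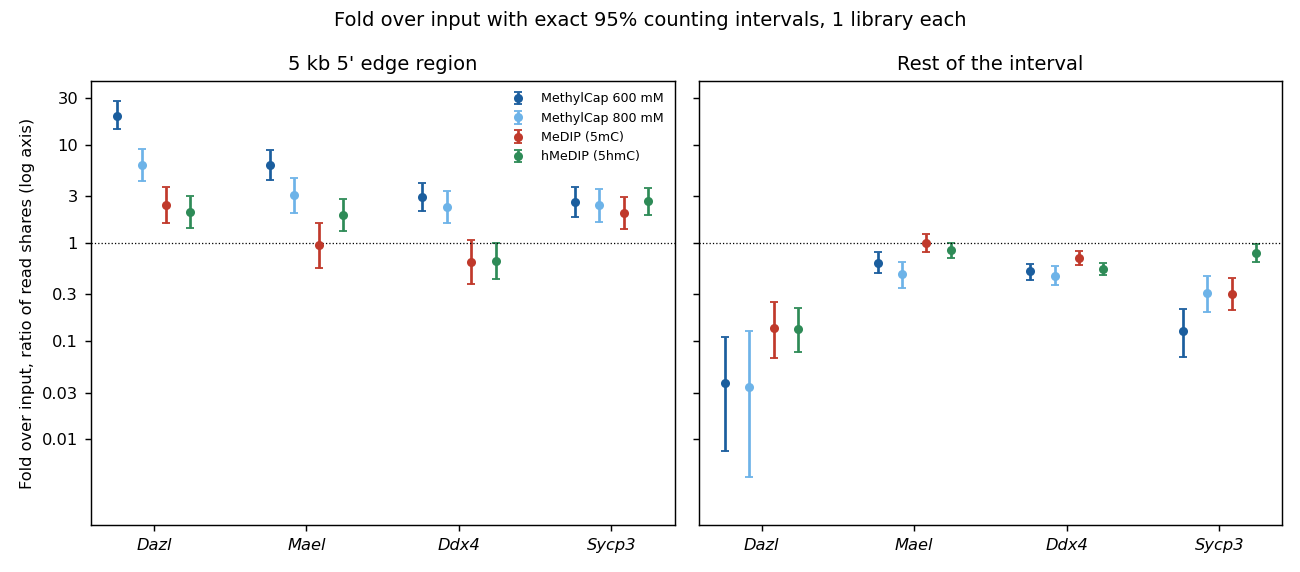
Fold over input (ratio of read shares, log axis) of each library over the 5 kb at the 5′ edge (left) and over the rest of the interval (right) for the 4 genes; points are single libraries and bars are exact 95% counting intervals. At the 5′ edge the 600 mM eluate falls from 19.7-fold in Dazl to 2.58-fold in Sycp3, while over the rest of the interval none of the 16 values, scaled to library totals, lies above 1.

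Away from the 5′ edge the signal of all 4 libraries, scaled to library totals, was at or under the input level. Over the remaining 12.5 kb of the Dazl interval there were 3 reads at 600 mM, 2 at 800 mM, 11 in MeDIP and 19 in hMeDIP against 144 in input. The folds were 0.0372 (0.00758 to 0.111), 0.0346 (0.00415 to 0.127), 0.137 (0.0667 to 0.252) and 0.133 (0.0778 to 0.215), below the ordinary window in each library. Sycp3 was also low over its remaining 14 kb, where the eluates held 15 reads (600 mM, 0.127-fold) and 26 reads (800 mM, 0.306-fold) and MeDIP 36 (0.305-fold) against 211 input reads. Its hMeDIP was higher there, at 0.789-fold (0.639 to 0.971) with 165 reads, and 100 of these lay in 1 kb described below. Mael, over 35.5 kb, was at 0.631-fold, 0.477-fold, 0.995-fold and 0.838-fold in the 600 mM eluate, 800 mM eluate, MeDIP and hMeDIP, and Ddx4, over 51.5 kb, at 0.512-fold, 0.463-fold, 0.697-fold and 0.543-fold. Against the ordinary window, MeDIP was above it in the body of Mael (interval 0.808 to 1.22) and hMeDIP below it in the body of Ddx4 (0.468 to 0.630). The bodies of Dazl and Sycp3 were below it in MBD capture and 5mC antibody.

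The flanks were low on the 3′ side. In the 3′ flank of Dazl the folds were 0.196 to 0.397, in Mael 0.273 to 0.672, and in Sycp3 0.126 to 0.284. In RefSeq's build a neighbour, Chpt1, overlaps the end of Sycp3, and its place in mm9 was not used. The 3′ flank of Ddx4 was at 0.363-fold in hMeDIP (9 reads) and between 0.714 and 1.19 in the other 3. The 5′ flanks share 2 kb with the 5′ edge regions. Dazl was above input there in the 600 mM eluate (2.43-fold, 1.55 to 3.85) and the 800 mM eluate (2.49-fold, 1.52 to 4.06), and Ddx4 likewise (2.64-fold, 1.77 to 3.96, and 1.87-fold, 1.15 to 3.0). In Mael MeDIP was the library above input in the 5′ flank (1.75-fold, 1.15 to 2.67). Sycp3 was above input in the 800 mM eluate (2.95-fold, 1.71 to 5.12) and MeDIP (2.12-fold, 1.23 to 3.68).

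To place the signal, single bins were taken as the ratio (RPM + 0.5)/(input RPM + 0.5), which pulls bins with few reads toward 1. The rule took the bin highest in MeDIP as the peak, and in Dazl this bin, the last bin of the interval, had its centre 250 bp inside the 5′ edge. It held 20 MeDIP reads against 1 of input (ratio 4.36), with 186 reads at 600 mM (33.0), 31 at 800 mM (8.36) and 17 in hMeDIP (2.56). In the other genes the MeDIP rule led away from the 5′ edge. It chose a bin 36.75 kb inside the Mael interval (18 MeDIP reads, ratio 3.37), one 3.75 kb inside Ddx4 (16 reads, 3.08) and one 4.25 kb inside Sycp3 (14 reads, 2.79), each against 3 input reads. Ratios this high are reached by 0.987%, 1.37% and 1.89% of all bins, in windows of 97, 129 and 54 bins, so they do not stand out from what a window of that size holds.

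The bin highest in the 600 mM eluate lay in the 5′ edge region of all 4 genes and was also the bin highest in the 800 mM eluate. In Dazl it was chr17:50432501-50433000, with 247, 46, 14 and 23 reads in the 600 mM eluate, 800 mM eluate, MeDIP and hMeDIP against 4 in input. Its 600 mM ratio of 33.8 is reached by 0.00216% of all bins. In Mael it was chr1:168168501-168169000, with 110, 20, 2 and 15 reads and no input read. Its 600 mM ratio was 22.0, reached by 0.00717% of all bins. With the absent input set to 3 reads, the 600 mM eluate was 65.5-fold higher than input. The exact interval, which uses no such setting, starts at 52.3-fold. These bins were chosen by their ratio to input, so a low input is favoured by the choice. Both bins had their centre 0.75 kb inside the 5′ edge. MeDIP differed between them, with 14 reads in Dazl and 2 in Mael.

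In Ddx4 the 600 mM bin was chr13:113442501-113443000, just outside the edge, with 43, 21, 2 and 8 reads and no input read. The 600 mM ratio was 9.22, reached by 0.0485% of all bins. With the absent input set to 3 reads it was 25.6-fold higher than input, and the exact interval starts at 19.9-fold. Its input too is low by choice. The neighbour of this bin inside the edge held 40 and 20 reads of the eluates, 1 of MeDIP and 8 of hMeDIP. In Sycp3 it was chr10:87922501-87923000, 2.75 kb inside, with 34, 16, 8 and 31 reads against 3 of input. The 600 mM ratio was 5.68, reached by 0.162% of bins, and the raw ratio was 20.2 (6.36 to 102.9).

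**Figure D2:**
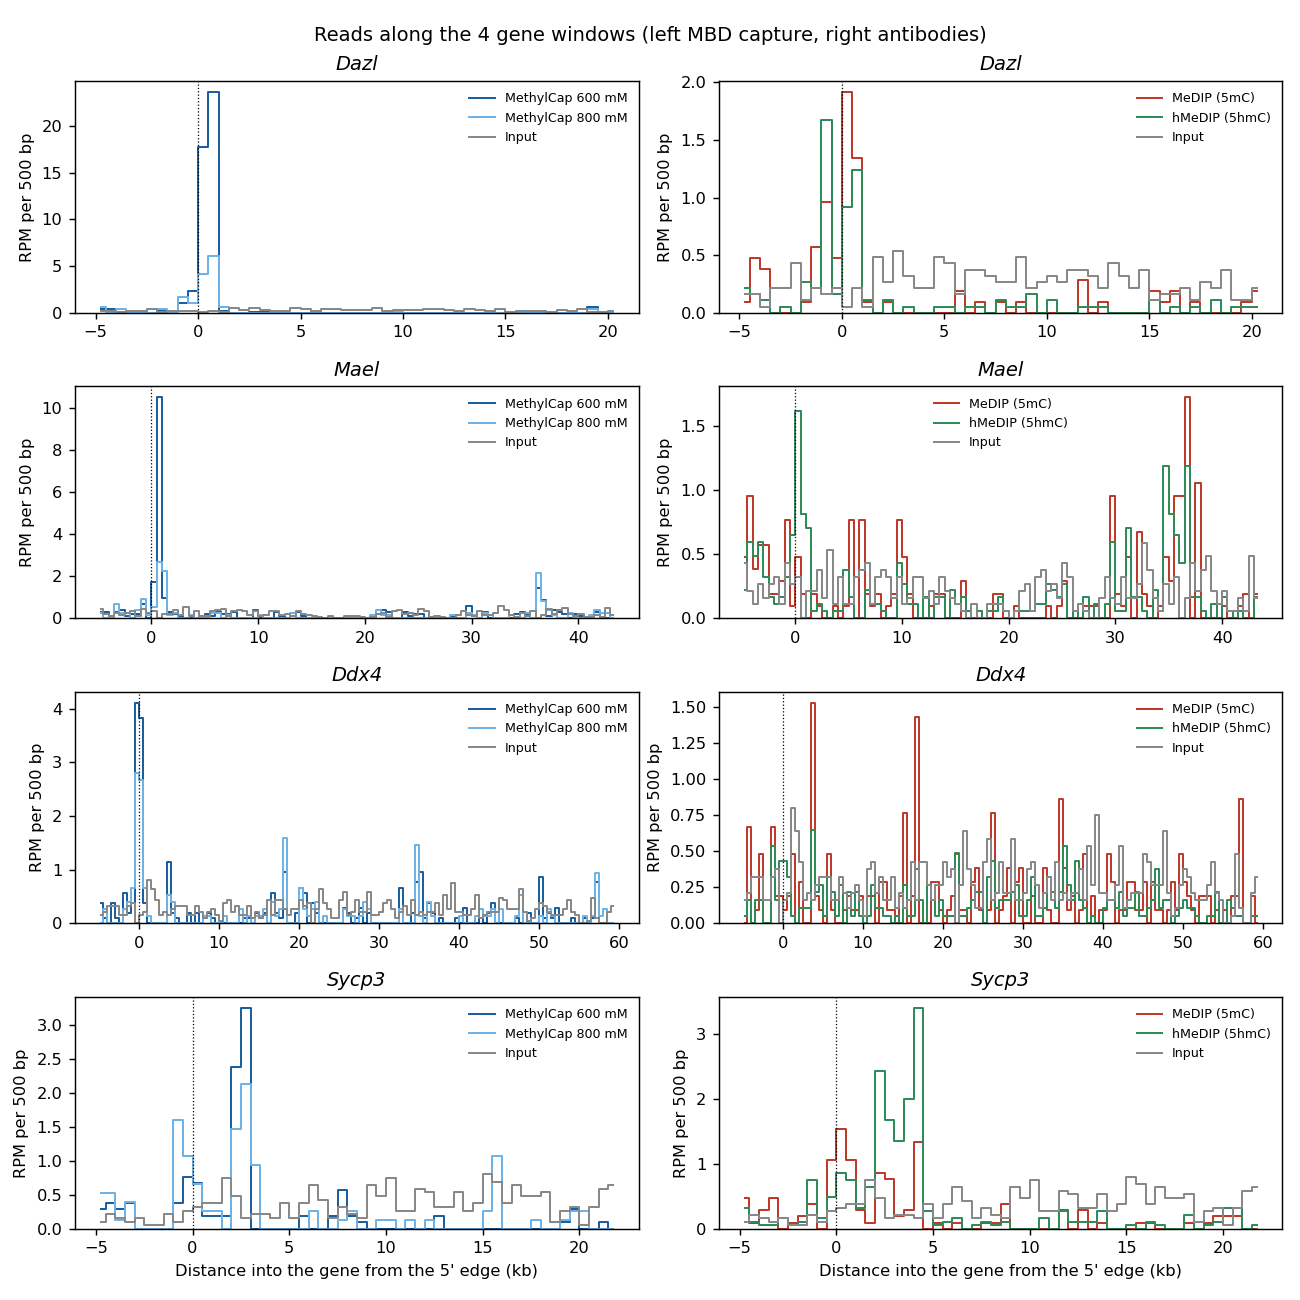
RPM per 500 bp bin against the distance of the bin into the gene from the 5′ edge (dotted line), with MBD capture on the left and the antibodies on the right, and input in grey; each panel has its own vertical scale. Both eluates are highest at the 5′ end in all 4 genes, while the highest MeDIP bins of Mael and Ddx4 lie inside the gene.

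At a finer scale, within 1.5 kb of the 600 mM bin of Dazl, the median read lay 526 bp inside the edge at 600 mM, 506 bp at 800 mM, 450 bp in MeDIP and 474 bp in hMeDIP, and the input's at 1581 bp. These medians leave out reads more than 750 bp outside the edge, where hMeDIP had further signal (the bin at -0.75 kb held 31 hMeDIP reads). The middle 50% of the 600 mM reads spanned 340 bp. Plus and minus strand reads of the 600 mM eluate had medians 183 bp apart in Dazl, 186 bp in Mael, 184 bp in Ddx4 and 228 bp in Sycp3, with the minus strand reads at the higher coordinates. In Mael the median 600 mM read lay at 748 bp and the median hMeDIP read at 316 bp, and the middle 50% of the 600 mM reads spanned 236 bp (624 to 860 bp). The hMeDIP reads of Mael were spread from 107 to 810 bp in their middle 50%, more toward the edge.

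**Figure D3:**
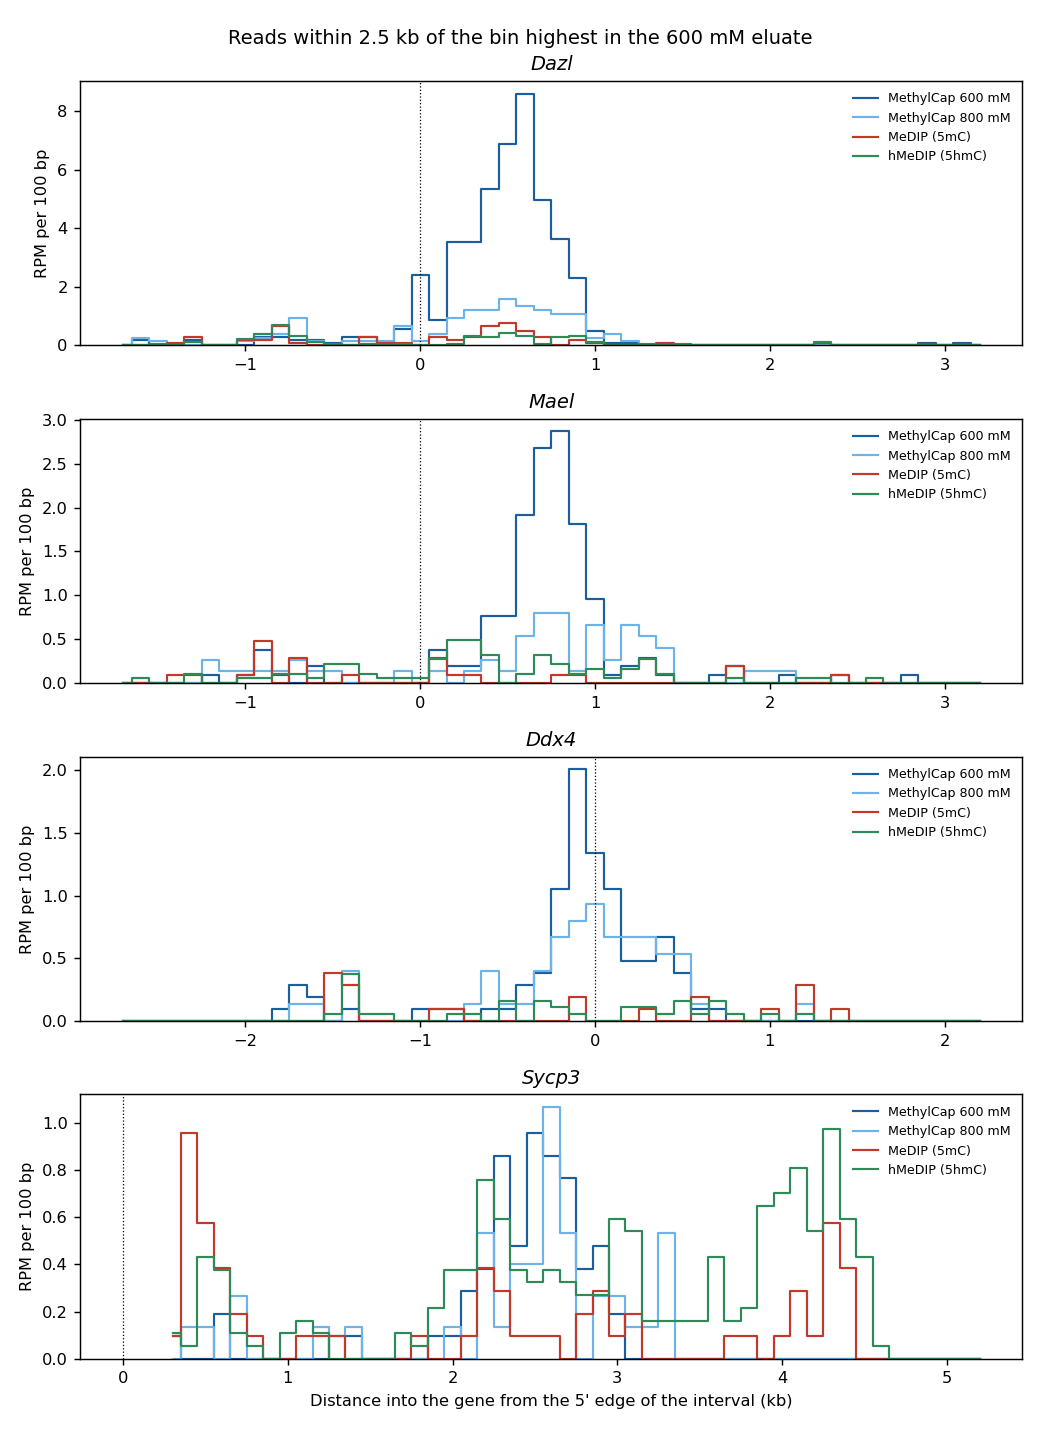
RPM per 100 bp within 2.5 kb of the bin highest in the 600 mM eluate, against the distance into the gene from the 5′ edge, for the 4 enriched libraries. Each gene shows 1 main captured site. In Dazl the 800 mM eluate has further reads around 0.75 kb outside the edge. In Sycp3 hMeDIP has further signal around 4 kb where both eluates are at 0.

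The 5mC antibody and the MBD capture were then compared directly, as both read methylated DNA. In RPM, the 600 mM eluate held 8.17 times the MeDIP reads over the 5′ edge of Dazl (6.21 to 10.9), 6.45 times in Mael (4.18 to 10.4), 4.49 times in Ddx4 (2.81 to 7.49) and 1.29 times in Sycp3 (0.922 to 1.81). Over the rest of the interval the same ratio was 0.634 in Mael (0.484 to 0.827), 0.735 in Ddx4 (0.590 to 0.913) and 0.416 in Sycp3 (0.212 to 0.779), so the excess of capture was at the 5′ edge. The contrast was sharpest in 1 kb of Mael, chr1:168168001-168169000, with 120 reads in the 600 mM eluate and 2 in MeDIP, 59.9 times in RPM (16.2 to 500.2). In 1 kb of Ddx4, chr13:113442001-113443000, the counts were 83 and 3, or 27.6 times (9.13 to 136.6). In 1.5 kb of Dazl, chr17:50432501-50434000, they were 457 and 39, or 11.7 times (8.43 to 16.7). These stretches were runs of neighbouring bins at a ratio of 3 or more in an eluate, so the capture is high there by choice and the MeDIP count is not.

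MeDIP over the same stretches was 7.75-fold over input in Dazl (3.69 to 18.2), 0.894-fold in Mael (0.0809 to 6.24) and 1.79-fold in Ddx4 (0.240 to 13.3). Even so, in Mael and Ddx4 an enrichment with the 5mC antibody was thus not detectable at this depth, with 4 and 3 input reads. hMeDIP was 4.82-fold in Dazl (2.32 to 11.2), 7.06-fold in Mael (2.47 to 27.7) and 5.38-fold in Ddx4 (1.54 to 28.8), but the runs were chosen by a ratio to input, so their input (9, 4 and 3 reads) is low by choice and these folds over input are a description. Over the 5 kb at the edge, which was not chosen by reads, hMeDIP was 2.04-fold, 1.91-fold and 0.661-fold in the same order.

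A bin was called enriched where this ratio reached 3. In the 600 mM eluate these were 8 of the 331 bins (2.42%), where 1.75% of all bins pass. In the 800 mM eluate they were 10 (3.02%, against 2.59%), in MeDIP 3 (0.906%, against 1.44%) and in hMeDIP 4 (1.21%, against 1.11%). Over whole windows the shares were thus near those of all bins. A ratio of 5 or more was reached by 6 bins at 600 mM (0.248% of all bins), 5 at 800 mM (0.379%), none in MeDIP (0.25%) and 1 in hMeDIP (0.154%). Within the 40 bins of the 5′ edge regions, those with a ratio of 3 or more were 7 (17.5%) at 600 mM, 9 (22.5%) at 800 mM, 1 (2.5%) in MeDIP and 2 (5.0%) in hMeDIP. Of the 8 bins enriched at 600 mM, 7 (87.5%) were enriched at 800 mM, 1 (12.5%) in MeDIP and 1 (12.5%) in hMeDIP. Of all 83595 bins enriched at 600 mM the shares were 63.5%, 30.8% and 15.0%. Within the 4 genes, the 1 shared with MeDIP was the Dazl bin 250 bp inside the edge, and the 1 shared with hMeDIP was the captured bin of Sycp3.

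Outside the 5′ edge regions, enriched bins lay at the far end of Mael, in Ddx4 and in Sycp3. In Mael, a pair of neighbouring bins about 36 kb inside the interval held more reads than input in all 4 libraries. The bin at chr1:168133001-168133500 held 15, 16, 10 and 8 reads in the 600 mM eluate, 800 mM eluate, MeDIP and hMeDIP and no input read, with enriched ratios in both eluates (3.87 and 5.26). Its neighbour at chr1:168132501-168133000 held 9, 6, 18 and 22 reads against 3 of input and was enriched in MeDIP (3.37). In Ddx4 the bin at chr13:113438501-113439000 held 16 MeDIP reads against 3 of input, with 12, 4 and 12 reads in the 600 mM eluate, 800 mM eluate and hMeDIP.

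5hmC was compared with 5mC by the ratio of hMeDIP to MeDIP in RPM. At the 5′ edge it was 2.00 in Mael (1.26 to 3.29), 1.32 in Sycp3 (0.980 to 1.79), 1.02 in Ddx4 (0.595 to 1.81) and 0.846 in Dazl (0.600 to 1.2). Over all bins enriched at 600 mM, reads pooled, it was 0.640, with a median of 0.739 over single bins on the scale with the pseudocount. The interval of Mael lay above 1, above that of the rest of its own interval (0.842, 0.681 to 1.04) and above that of Dazl. In the 5′ flank of Mael, which shares 2 kb with this region, the ratio was 0.804 (0.545 to 1.19). Within 5 kb either side of the edge of Mael, hMeDIP was 1.51-fold and MeDIP 1.15-fold over input, so the excess depended on the region taken. The difference between Mael and Ddx4 or Sycp3 was within their intervals. In the 1 kb of Mael that was a run in the 800 mM eluate, with 28 hMeDIP and 2 MeDIP reads, it was 7.89 (1.99 to 68.4). In the 1 kb run of Ddx4, with 16 and 3, it was 3.01 (0.861 to 16.1). In Dazl, over the 1.5 kb run, the ratio was 0.622 (0.394 to 0.985), with 43 hMeDIP and 39 MeDIP reads.

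**Figure D4:**
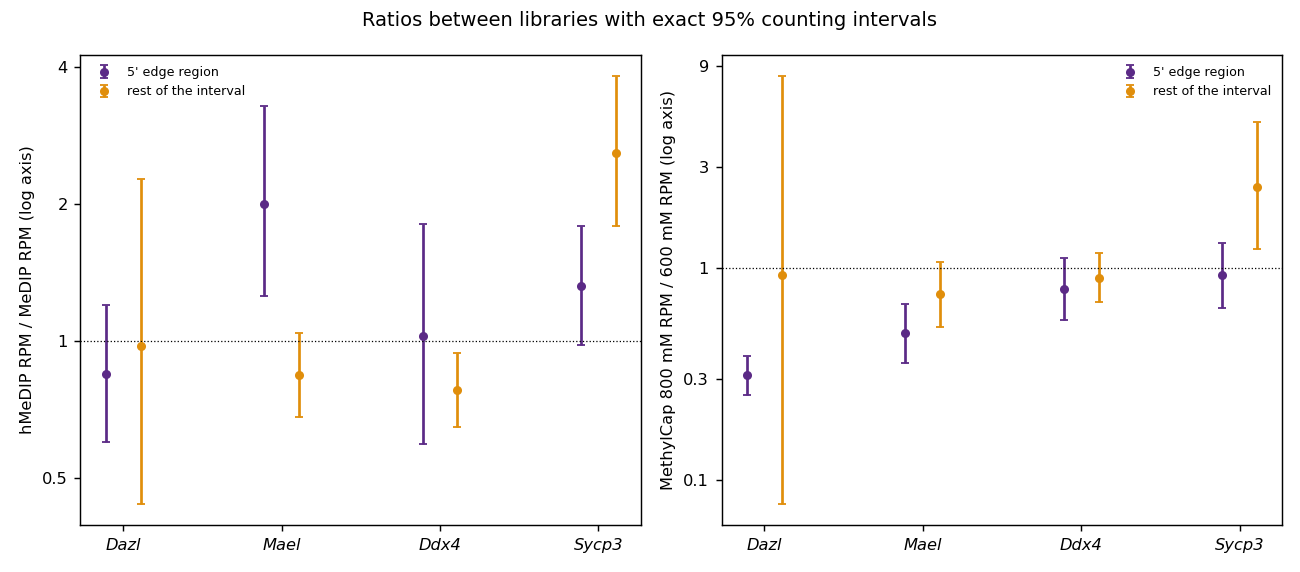
Ratio of hMeDIP to MeDIP (left) and of the 800 mM to the 600 mM eluate (right), in RPM on log axes, at the 5′ edge and over the rest of the interval, with exact 95% counting intervals. Mael (2.00) lies above 1 on the left at the 5′ edge and Sycp3 (2.58) over the rest, and on the right Dazl (0.314) and Mael (0.494) lie below 1 at the 5′ edge.

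The bin with the highest hMeDIP ratio was near the captured bin in Dazl and Sycp3 and not on it. In Dazl it was chr17:50434001-50434500, 750 bp outside the edge, with 31 hMeDIP reads, 10 MeDIP reads, 11 and 13 reads of the eluates and 3 input reads (hMeDIP ratio 3.29, raw ratio 10.4, 3.25 to 53.3). This Dazl bin was also enriched in the 800 mM eluate (ratio 3.38, reached by 1.82% of bins), apart from the main captured site. In Mael it was the captured bin itself (15 reads, no input read, ratio 2.62, reached by 1.85% of bins), and more hMeDIP reads, 30 against 6 of input, lay in the next bin toward the edge. In Ddx4 the highest hMeDIP bin was 21.75 kb inside the gene with 9 reads (ratio 1.97, reached by 5.00% of bins), so no bin of Ddx4 stood out in hMeDIP.

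In Sycp3 the highest hMeDIP bin was chr10:87924001-87924500, 4.25 kb inside the edge, with 63 hMeDIP and 14 MeDIP reads against 3 of input and no read of either eluate. Its hMeDIP ratio was 5.91, reached by 0.0798% of all bins. With the bin before it, it made a run of 1 kb, chr10:87923501-87924500, with 100 hMeDIP reads (5.40 RPM), 17 MeDIP reads (1.63 RPM), no MethylCap read and 7 input reads. hMeDIP was 14.4-fold over input in this run (6.74 to 36.8), MeDIP 4.34-fold (1.71 to 12.4), and hMeDIP 3.32 times MeDIP (1.97 to 5.92). The run was chosen by its hMeDIP ratio to input, so its hMeDIP excess over the other libraries is a description. With the absent MethylCap reads set to 3, hMeDIP in RPM was 18.8-fold higher than the 600 mM eluate and 13.5-fold higher than the 800 mM eluate. The exact intervals, which use no such setting, start at 15.0-fold and 10.8-fold. The captured site of Sycp3, ending 500 bp before, and the hMeDIP run were thus side by side. The first bin of the run was the 1 bin of the 331 that was at least 3-fold higher in hMeDIP than in MeDIP, where 0.179% of all bins are, and no bin of the 4 windows was at least 3-fold higher in MeDIP, where 0.22% are.

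The reads of the Sycp3 run lay almost wholly on 1 strand, which was looked at after the values were seen. In the run 96 of 100 hMeDIP reads and 16 of 17 MeDIP reads were on the minus strand of mm9 (96.0%, 90.1 to 98.9, and 94.1%, 71.3 to 99.9), against 3 of 7 input reads. In the 3 kb around the captured bin 155 of 180 hMeDIP reads (86.1%) and 25 of 28 MeDIP reads (89.3%) were on the minus strand, against 26 of 63 in the 600 mM eluate (41.3%), 18 of 35 at 800 mM (51.4%) and 21 of 39 in input (53.8%). By strand, hMeDIP in this 3 kb was 7.44-fold over input on the minus strand and 1.40-fold on the plus strand. MeDIP was 2.13-fold on the minus strand and 0.298-fold on the plus strand. The signal of both antibodies in this stretch of Sycp3 thus rests mostly on minus strand reads. Both antibody libraries were made from denatured DNA, and no control antibody library was analysed.

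Such windows were common in the antibody libraries as a whole. Of all 3 kb windows with at least 25 reads, at least 85% of reads were on 1 strand in 8.79% in hMeDIP and 9.53% in MeDIP, but in 0.163% at 600 mM, 0.0188% at 800 mM and 0.00501% in input. Around the captured bins of Dazl and Mael the antibody reads were divided between the strands, with 26 of 53 hMeDIP reads (49.1%) and 21 of 41 MeDIP reads (51.2%) on the minus strand in Dazl, and 41 of 75 (54.7%) and 7 of 13 (53.8%) in Mael. In Ddx4 it was 13 of 36 hMeDIP reads (36.1%) and 3 of 18 MeDIP reads (16.7%, 3.58 to 41.4), while the 600 mM eluate was at 39.8%. Over the whole window of Mael, the minus strand held 37.9% of MeDIP reads (31.3 to 44.8), 48.6% of hMeDIP reads and 48.8% of input reads. MeDIP there was 1.22-fold over input on the plus strand and 0.782-fold on the minus strand. Over the whole window of Ddx4 the minus strand held 38.1% in MeDIP (32.1 to 44.4) and 40.7% in hMeDIP (35.4 to 46.1), against 50.5% in input. The part of this imbalance in the folds of the antibody libraries, also in the gene bodies, was not tested.

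**Figure D5:**
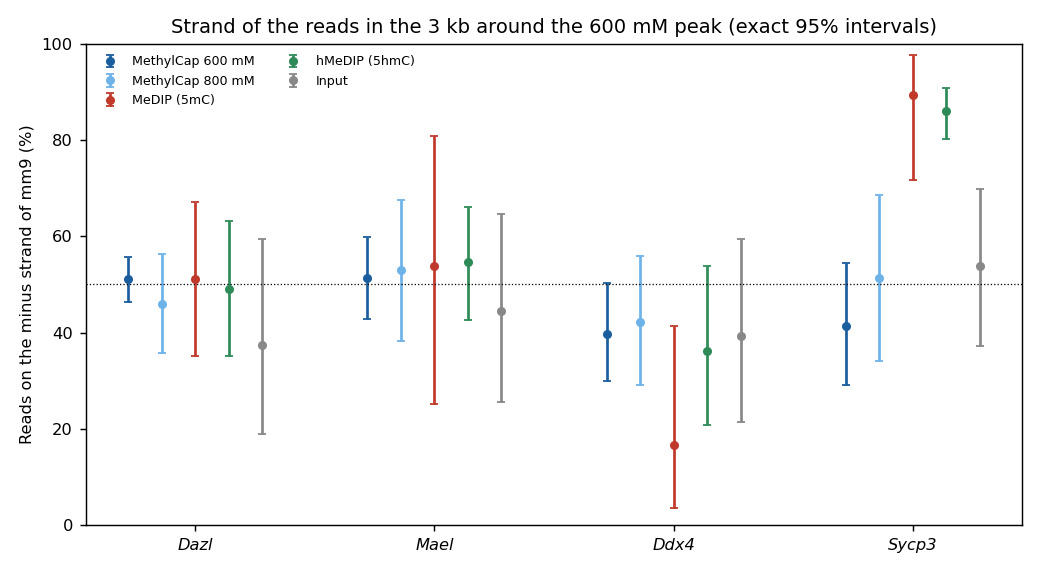
Share of reads on the minus strand of mm9 in the 3 kb around the bin highest in the 600 mM eluate, by gene and library, with exact 95% intervals (a dotted line marks 50%). In Sycp3 MeDIP (89.3%) and hMeDIP (86.1%) lie far above the eluates and input, and in Dazl and Mael all 5 intervals hold 50%.

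The salt steps were compared by the ratio of the 800 mM to the 600 mM eluate in RPM. At the 5′ edge this was 0.314 in Dazl (0.252 to 0.388), 0.494 in Mael (0.357 to 0.677), 0.802 in Ddx4 (0.569 to 1.12) and 0.929 in Sycp3 (0.650 to 1.32). Over all bins enriched in MeDIP it was 0.955, reads pooled. The 5′ edges of Dazl and Mael thus took a larger share of the 600 mM library than of the 800 mM library. The yields of the eluates are not in these values, so the amount of DNA released at each step was not measured. The interval of Dazl lay below those of Ddx4 and Sycp3. In the bins highest at 600 mM the ratios were 0.260 in Dazl (0.185 to 0.357), 0.253 in Mael (0.149 to 0.411), 0.681 in Ddx4 (0.384 to 1.17) and 0.656 in Sycp3 (0.338 to 1.22). Those bins were chosen by their 600 mM ratio, which favours a low value here, so these ratios are a description.

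In RPM + 0.5, the 600 mM eluate exceeded the 800 mM eluate by 3-fold or more in 3 of the 331 bins, where 0.0492% of all bins do so, and these were the 2 bins of Dazl inside the edge and the captured bin of Mael. In the other direction 1 bin passed, where 0.154% of all bins do. It lay 15.75 kb inside Sycp3 at chr10:87935501-87936000, with 8 reads at 800 mM, none at 600 mM and 13 in input, and is thus below input at 600 mM and near it at 800 mM. Beside the captured bin of Mael, the bin at chr1:168168001-168168500 held 10 reads at 600 mM and 17 at 800 mM. In Ddx4 the neighbour inside the edge, with 40 and 20 reads, was much like the captured bin with 43 and 21.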

How the data were processed

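A total of 5 libraries, 1 per group, were analysed: 2 MethylCap eluates, MeDIP, hMeDIP and an input from another ES line. Each line of the deposited lists is an aligned read of 35 bp, and the deposited count column holds 1 in every line. The submitters' processing notes name BWA 0.5.8 and the mm9 build. The sources used here do not say what the other deposited column means, which holds 0 or 1 (1 for 7.81 to 8.35% of reads in the eluates and input, 0 in MeDIP and hMeDIP). At most 1 read per position and strand was present in MeDIP, hMeDIP and input and at most 2 in the eluates, so duplicates had been reduced, which caps dense signal.

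Reads were placed by midpoint, counted in 500 bp bins and scaled to RPM on chromosomes 1 to 19 and X with Python 3.11.15, numpy 2.4.6, pandas 2.3.3 and scipy 1.17.1. Intervals are exact (Clopper-Pearson) at 95%. The side of the 5′ edge was taken from the strand in RefSeq. The calling rule and intervals were run on simulated data. The simulated reads were independent, unlike the real ones, so this checked the calculation only. Genes, windows and the list of 20 other germline genes were chosen with earlier results of these data known. All 4 genes are described, and in each window the peak bin, runs of enriched bins and the bin highest in hMeDIP are named. The peak rule used MeDIP, with the 600 mM eluate as its alternative. Leading with that alternative, the folds of runs, the strand counts and other named bins were chosen after the values were seen. Alternatives changed the reads counted, their position, the scaling, the pseudocount, the bins and the region.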

Additional observations from a re-analysis of the deposited data

How the results depend on the processing

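Each group held 1 library, so no replicate could be left out. No paired analysis was possible because each group holds 1 library. The ratios of hMeDIP to MeDIP and of the 800 mM to the 600 mM eluate at the 5′ edge stayed within their intervals under all 16 alternative values each (reads counted, shifted positions, scaling). For hMeDIP to MeDIP the alternatives in the reads counted removed no read of either library, so those values could not change. The region was not varied for either ratio, so these counts cannot be set beside those of the folds. The fold of the 5′ edge did so in 70 of 96 values, the peak bin chosen by MeDIP in 92 of 128, the counts of enriched bins within 1.5 times in 16 of 28 and the peak position within 1 bin in 6 of 16. Causes of the changes were not tested. A pseudocount pulls ratios toward 1 by its definition. Within 1 kb either side of the edge the 600 mM fold was higher than in the main region in Dazl, Mael and Ddx4. It was lower in Sycp3, whose captured bin lies outside that smaller region. Depth limits the single bins, most of which rest on 0 to 4 input reads.

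The folds, positions and counts listed from here on are those outside their interval or limit, unless stated. Within 1 kb either side of the edge the Dazl folds were 69.6, 20.3, 7.30 and 6.22 (600 mM, 800 mM, MeDIP, hMeDIP). In Mael they were 12.7 (600 mM) and 3.34 (hMeDIP), and in Ddx4 11.6, 9.06 and 1.80 (600 mM, 800 mM, hMeDIP). In Sycp3 MeDIP was 3.40-fold. Still within their intervals, the Sycp3 folds fell to 1.87 at 600 mM and 2.12 in hMeDIP and rose to 3.36 at 800 mM. Within 5 kb either side the folds were 9.75, 3.30, 1.37 and 1.12 in Dazl, and at 600 and 800 mM 3.32 and 1.81 in Mael and 2.07 and 1.53 in Ddx4. The median 10 kb ratio was 0.627, 0.572, 0.769 and 0.788 in the same order. With it set to 1 the 600 and 800 mM folds were 31.5 and 10.8 in Dazl, 9.81 and 5.32 in Mael, 4.62 and 4.07 in Ddx4, and 4.12 and 4.20 in Sycp3.

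For the bin chosen by MeDIP, values are again in the order 600 mM, 800 mM, MeDIP, hMeDIP. A pseudocount of 0.1 RPM gave 116.4, 27.5, 13.1 and 6.63 in Dazl, 15.3, 22.3, 10.6 and 5.32 in Mael, 4.78 (600 mM), 6.26 (MeDIP) and 2.87 (hMeDIP) in Ddx4, and 0.384, 0.384, 5.53 and 13.4 in Sycp3. With 1 RPM the eluates were 17.8 and 4.87 in Dazl and hMeDIP 3.79 in Sycp3. Median scaling gave 52.1, 14.0, 5.40 and 3.01 in Dazl and 3.53 (600 mM) in Ddx4. A grid shifted by 250 bp gave 49.2, 11.6 and 3.14 (600 mM, 800 mM, hMeDIP) in Dazl, 4.36 and 3.55 (eluates) in Mael and 1.70 (hMeDIP) in Sycp3, and 1 kb bins 3.20 (800 mM) in Mael and 1.77 (hMeDIP) in Sycp3. Input averaged over 5 kb gave 1.46, 1.46 and 1.71 (600 mM, 800 mM, hMeDIP) in Sycp3, and without reads with a 1 in the unnamed column both eluates were 0.740 there. The MeDIP peak of Sycp3 is thus 1 of several near-equal bins.

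The peak chosen by the 600 mM eluate lay 750 bp inside the edge in Dazl and Mael, at -250 bp in Ddx4 and at 2750 bp in Sycp3. The MeDIP peak moved to 35000 bp in Ddx4 and 500 bp in Sycp3 with the shifted grid, to 36250 bp in Mael, 57250 bp in Ddx4 and 250 bp in Sycp3 with shifted positions, and to 36250 bp in Mael with 0.1 RPM. Enriched bins in the 600 mM eluate, 800 mM eluate, MeDIP and hMeDIP numbered 19, 22, 21 and 17 with 0.1 RPM. With 1 RPM they were 6 (800 mM), 0 (MeDIP) and 1 (hMeDIP), at 5-fold 5, 0 and 1, and with at least 3 input reads 4 at 600 mM and 5 at 800 mM.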
